A study of Mus musculus with 6 samples.

Results

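The 10 genes described here are the 7 mammalian sirtuins (Sirt1 to Sirt7), the transcriptional coactivators PGC-1alpha (Ppargc1a) and PGC-1beta (Ppargc1b), and the mitochondrial transcription factor A gene Tfam. They were found by symbol among the 18849 genes of the deposited table, and all 10 were present. The 6 RNA sequencing libraries are of kidney from male mice of the C57BL/6 strain. These were 8 weeks old and went through 14 days of UUO (unilateral ureteral obstruction, the surgical closing of 1 ureter). The 3 control libraries come from c-Abl flox/flox mice, called floxed here, whose Abl1 gene carries loxP sites; their genotype label reads WT. The 3 knockout libraries come from c-Abl Epi-cKO mice, in which Ksp-Cre, a recombinase driven by the promoter of the tubule cadherin gene Cdh16, removes c-Abl in tubule epithelium; their genotype label reads c-Abl knockdown. All 6 kidneys were obstructed, so every value below sets an obstructed knockout kidney against an obstructed floxed kidney. Cells outside the Cre-expressing tubule keep Abl1, and the labels do not say that each library is a different mouse, and the p-values therefore cover only the variation among these samples, which may be technical.

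Sirtuins are enzymes that remove acetyl and other acyl groups from lysines of proteins and consume NAD in doing so, which ties their activity to the energy state of the cell. Sirt3, Sirt4 and Sirt5 work inside mitochondria, Sirt1, Sirt6 and Sirt7 mainly in the nucleus, and Sirt2 mainly in the cytosol. PGC-1alpha and PGC-1beta bind nuclear receptors and other transcription factors and switch on genes for new mitochondria, and Tfam packs and transcribes mitochondrial DNA. Kidney tubules, the proximal tubule above all, are dense in mitochondria and live largely on fatty acid oxidation, which is known to decline in injured tubules.

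Sirt3 stood out in size among the 10 genes, with knockout replicates 1 and 2 averaging 2.38 times the floxed mean and knockout replicate 3 at 1.21 times. Ppargc1a, Sirt5, Ppargc1b and Tfam had higher means in the knockout kidneys, Sirt6 and Sirt1 lower ones, Sirt2 was lower by a small and even amount, and the means of Sirt4 and Sirt7 were nearly level. No member passed the test over all genes (limma, Benjamini-Hochberg adjusted p under 0.05): the count was 0 of 10, while 0.0672% of the 13390 genes tested passed. An unadjusted limma p under 0.05 was found for 3 members, Sirt3, Tfam and Sirt5, all higher, where 24.7% of all tested genes lay under that value. The groups did not overlap for 3 members that were higher in knockout (10% of tested genes) and for 1 that was lower (21.7% of tested genes). The members' median log2 fold change was 0.15, with 6 of 10 above 0, and that of all tested genes was -0.12, with 34.6% above 0. These are whole-kidney values, in which fewer cells of a type and less RNA per cell cannot be told apart. The log2 fold change is knockout minus floxed on the scale log2(FPKM + 1), which understates the change of low genes. FPKM stands for fragments per kilobase of gene, scaled to the mapped fragments of the library.

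**Figure D1:**
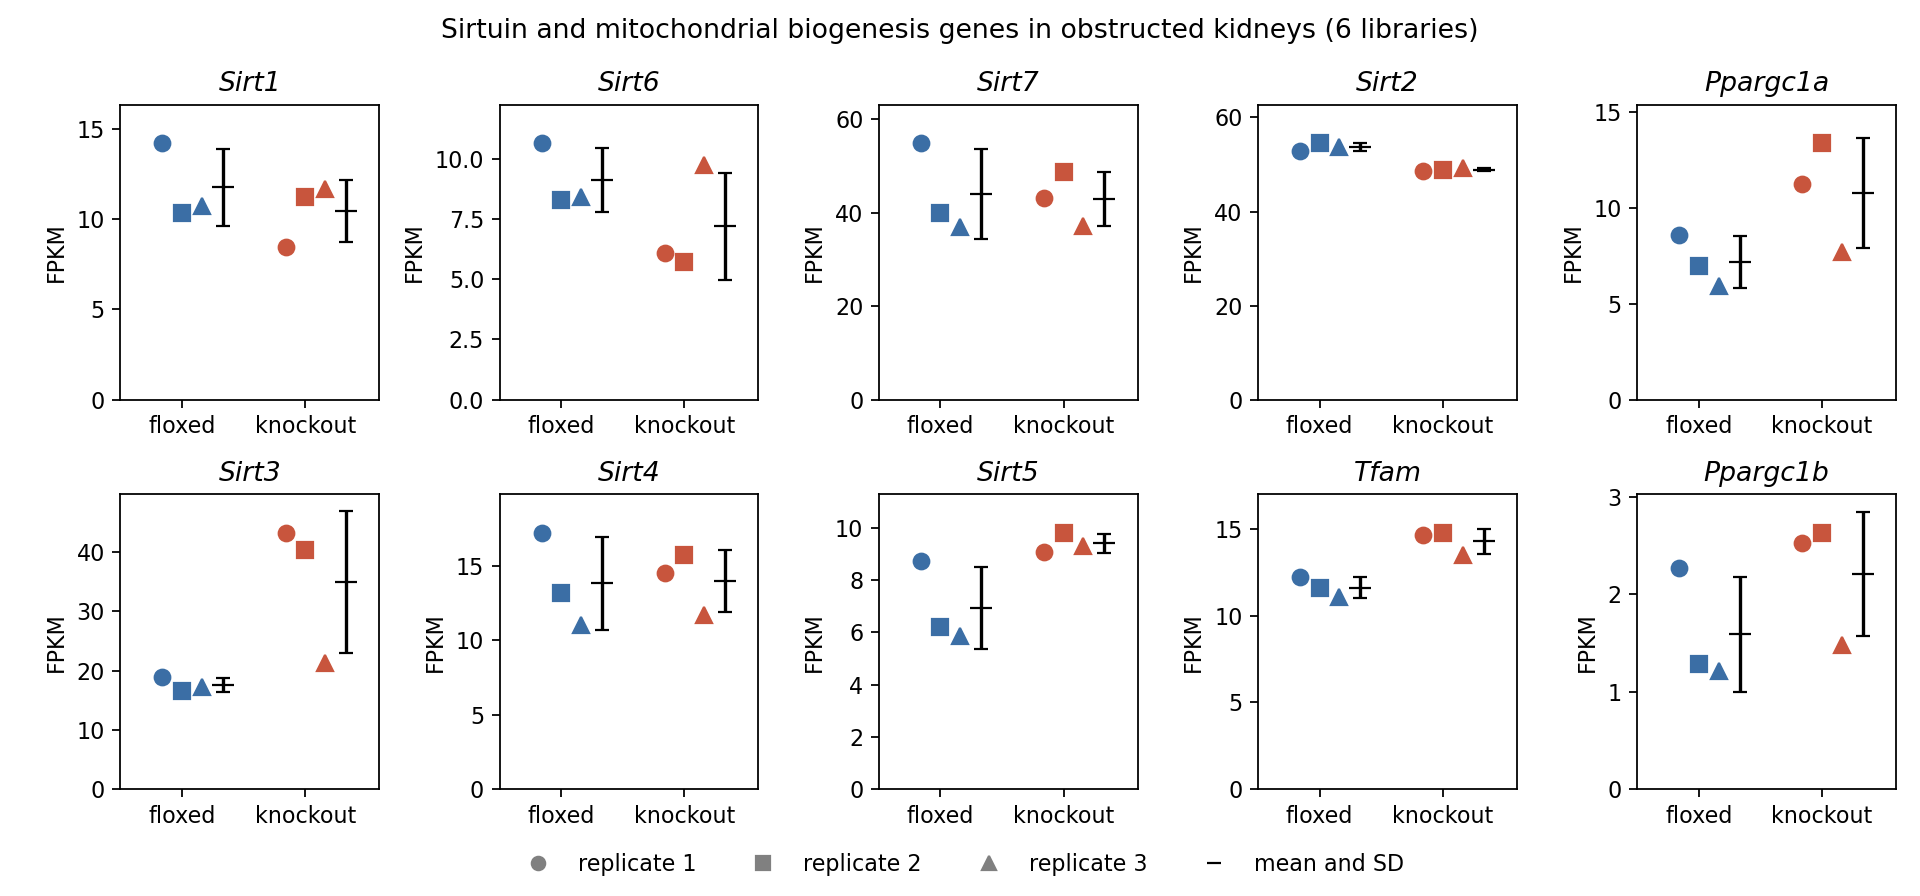
FPKM of the 10 genes in each of the 6 libraries (marker shape gives the replicate number, blue floxed, red knockout, black bar the group mean with its SD, n = 3). Sirt3 reads 43.31 and 40.38 in knockout replicates 1 and 2 and 21.28 in knockout replicate 3, and the 6 Sirt2 values lie in 2 tight, separate groups.

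The libraries within a group were not alike, and this touches the results below. Knockout replicate 3 lay closer to the floxed libraries across genes (Pearson correlation 0.968 to 0.969) than to knockout replicate 1 (0.941), and it was the lowest knockout library for 6 of the 10 members. Floxed replicate 1 was the highest floxed library for 9 of the 10 members, and its 13 measured lymphocyte markers summed to 225.7 FPKM, against 43.01 to 65.79 FPKM in the other 5 libraries. Abl1 read 15.93 to 18.16 FPKM in floxed and 10.46 to 14.45 FPKM in knockout libraries (limma adjusted p = 0.144). The kidney genes Lrp2, Slc34a1, Umod, Slc12a1 and Aqp2 were detected in all 6 libraries. The spacing of low values put the depth at roughly 16150000 to 17950000 fragments per library, at which the rarest member, Ppargc1b, stands for about 79.0 to 158 fragments if its longest annotated transcript is counted.

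Because knockout replicate 3 differed, each member was also fitted without it. Then 3 members passed: Sirt3 (log2 fold change 1.21, SE 0.108, limma adjusted p = 0.00349) and Ppargc1a (0.71, SE 0.179, adjusted p = 0.0358) rose, and Sirt6 (-0.54, SE 0.152, adjusted p = 0.0483) fell. Without that library 9.02% of all tested genes passed as higher and 15.4% as lower. The choice of this library was made after its values were seen.

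**Figure D2:**
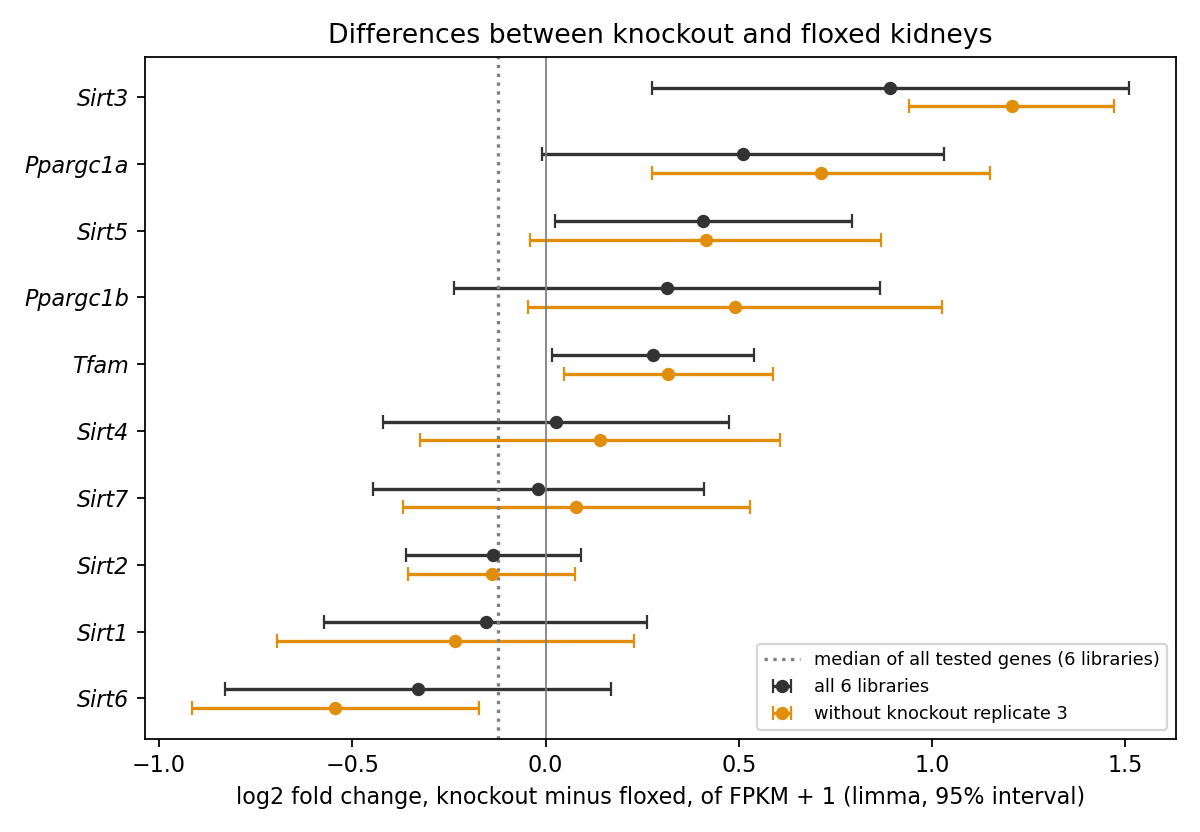
Log2 fold change of each member, knockout minus floxed, with its 95% limma interval, over all 6 libraries (dark) and without knockout replicate 3 (orange); the dotted line is the median of all tested genes. Sirt3 moves from 0.89 to 1.21 and its interval narrows when that library is left out, while Sirt2, Sirt5 and Tfam stay close to the same value.

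Upstream sequence is shown for the 3 members with the highest log2 fold changes, Sirt3, Ppargc1a and Sirt5, and for Sirt1 as the nuclear counterpart of Sirt3. The sequences are those of RefSeq for GRCm38.p6, whereas the expression table was made on mm9. Of the 10 members 9 had an entry, with 11 start sites, and the 250 bases before each start were searched on both strands for the letters of common motifs. The sequences run 5′ to 3′ toward the start, with no annotated exon in the Sirt1, Sirt5 and Ppargc1a stretches, and capitals mark the motif matches. The Sirt3 stretch is on the minus strand at chr7:140882375-140882404, 95 to 66 bases before the start. It was cut as the 30 bases round its ETS match, whereas the others are the longest runs without an annotated exon. The Sirt3 stretch can therefore not be compared with them. The Sirt1 stretch is on the minus strand at chr10:63339051-63339285, the Sirt5 stretch on the plus strand at chr13:43365285-43365495, and the Ppargc1a stretch on the minus strand at chr5:51567727-51567975.
Sirt3: tgctcgctcaCTTCCGGcaccgcgggcgcg
Sirt1: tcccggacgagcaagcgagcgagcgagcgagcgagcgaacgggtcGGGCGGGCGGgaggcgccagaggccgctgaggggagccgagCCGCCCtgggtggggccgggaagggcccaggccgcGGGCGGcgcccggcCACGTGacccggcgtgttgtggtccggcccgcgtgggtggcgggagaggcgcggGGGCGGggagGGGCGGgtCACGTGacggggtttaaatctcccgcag
Sirt5: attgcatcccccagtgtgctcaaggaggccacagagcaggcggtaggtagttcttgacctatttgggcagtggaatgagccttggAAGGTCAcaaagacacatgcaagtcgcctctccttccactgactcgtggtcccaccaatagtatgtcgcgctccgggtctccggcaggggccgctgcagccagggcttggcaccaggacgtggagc
Ppargc1a: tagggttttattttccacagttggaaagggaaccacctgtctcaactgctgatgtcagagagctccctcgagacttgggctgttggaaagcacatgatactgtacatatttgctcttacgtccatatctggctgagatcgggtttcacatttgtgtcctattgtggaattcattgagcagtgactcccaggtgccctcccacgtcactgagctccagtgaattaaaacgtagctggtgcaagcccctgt

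The Sirt3 stretch was cut round its match to the ETS core CCGGAAG, the site read by GABPA and related factors, which lies on the opposite strand. Sirt3 has another start, whose window holds matches to the Sp1 core GGGCGG and none to the ETS core. The ETS core was found in 4 of the 11 member windows (Sirt3, Sirt6, Sirt7 and Tfam) and in 6.91% of the 32851 windows of the whole table. The Sirt1 stretch holds 2 copies of the E-box CACGTG, which occurred in 6.02% of all windows, and several copies of the Sp1 core GGGCGG (7 of 11 member windows, 32.7% of all windows), some of which overlap each other. The Sirt5 stretch holds the single site AAGGTCA of the estrogen-related receptors, found in 1 member window and in 4.08% of all. The NRF1 core GCGCANGCG was found in 2 member windows (Sirt6 and Sirt7) and in 5.16% of all windows, the 2 Sirt6 matches being 1 site read on both strands. The cyclic AMP element TGACGTCA and the FOXO core TGTTTAC were in 0 member windows (1.55% and 3.17% of all windows), and none of these letters was in the Ppargc1a stretch. The 250 bases before Sirt1 were 79.2% G and C and those before Ppargc1a 48.0%, against a median of 52.4% over all windows. These matches describe the letters only.

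Sirt3 is the main deacetylase of the mitochondrial matrix and acts on enzymes of fatty acid oxidation, the respiratory chain and antioxidant defence. It read 18.9, 16.55 and 17.3 FPKM in the floxed kidneys and 43.31, 40.38 and 21.28 FPKM in the knockout kidneys, each time in the order of the replicate numbers. Trios of values below follow the same order, and controls there are the floxed kidneys. All knockout values lay above all floxed values, but replicate 3 only by a small margin. The means were 17.6 ± 1.20 and 35.0 ± 11.96 FPKM (SD, n = 3 each), a ratio of 1.99. The log2 fold change of 0.89 (SE 0.261, 95% interval 0.27 to 1.51) did not pass the limma test (adjusted p = 0.114), and it lay above that of 96.8% of tested genes. The medians of 20 proximal tubule markers, relative to the floxed mean, were 2.19, 1.53 and 0.19 in knockout replicates 1, 2 and 3, the same order as Sirt3, and their part in this result was not tested.

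Sirt3 begins 84 bases from Psmd13, a proteasome subunit gene that runs in the opposite direction, and its other end overlaps Ric8a by 69 bases in RefSeq. The ETS match shown above reaches across the edge of Psmd13. Psmd13 read 59.82, 59.98 and 58.18 FPKM in controls and 70.61, 61.05 and 63.09 FPKM in knockouts (limma adjusted p = 0.481). Ric8a, a chaperone of G proteins, read 21.57 to 25.3 FPKM in floxed and 17.36 to 26.21 FPKM in knockout libraries (limma adjusted p = 0.620). In the libraries where Sirt3 was at its highest, neither adjoining gene was raised to a like degree, and the differences between these genes were not tested.

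**Figure D3:**
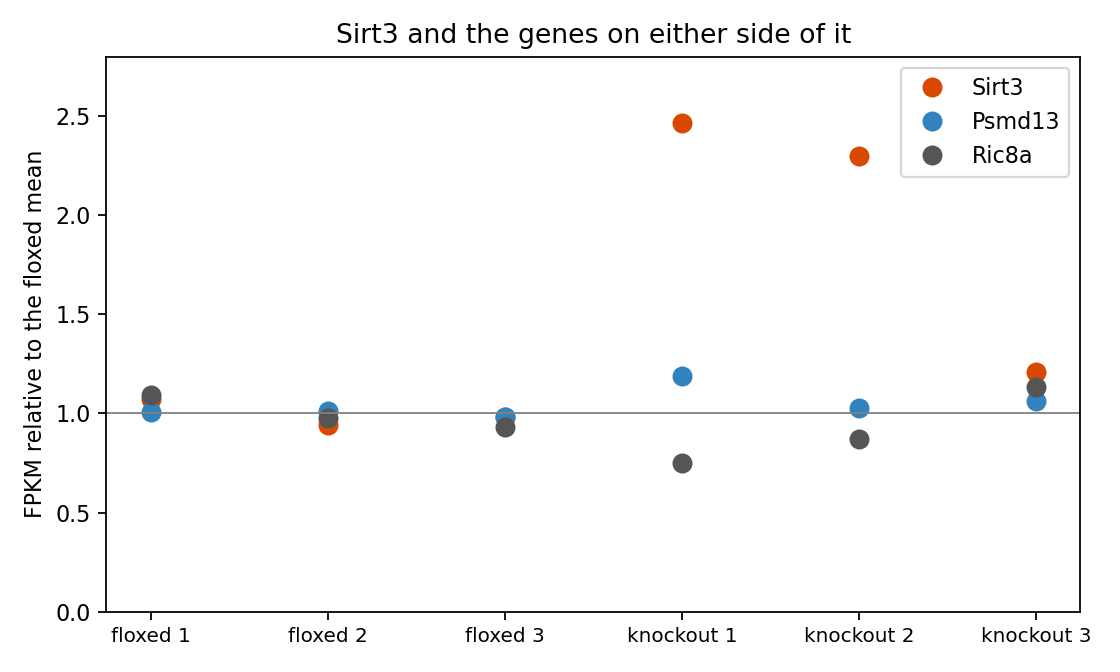
FPKM of Sirt3 and of the genes on either side of it, each divided by its own floxed mean, in the 6 libraries. Sirt3 lies at 2.46, 2.3 and 1.21 in knockout replicates 1, 2 and 3, Psmd13 at 1.19, 1.03 and 1.06, and Ric8a at 0.749, 0.87 and 1.13.

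Sirt5 removes succinyl, malonyl and glutaryl groups in mitochondria. It read 8.74, 6.19 and 5.88 FPKM in controls and 9.09, 9.82 and 9.31 FPKM in knockouts. The 3 knockout libraries agree closely here, knockout replicate 3 included, and floxed replicate 1 comes close to them. The log2 fold change was 0.41 (SE 0.162, 95% interval 0.02 to 0.79, limma adjusted p = 0.186) and the ratio of means 1.36. Sirt4, a mitochondrial sirtuin that restrains glutamate dehydrogenase, read 17.21, 13.18 and 11.03 FPKM in controls and 14.48, 15.73 and 11.67 FPKM in knockouts. The groups overlap throughout (log2 fold change 0.03, 95% interval -0.42 to 0.47, limma adjusted p = 0.939), and the sign of this difference turned in 4 of 13 alternative analyses.

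Among the nuclear sirtuins, Sirt1 deacetylates PGC-1alpha, p53 and FOXO factors. It read 14.2, 10.35 and 10.7 FPKM in controls and 8.46, 11.22 and 11.65 FPKM in knockouts. The highest value is that of floxed replicate 1 and the lowest that of knockout replicate 1, while the other 2 knockout values lie above the other 2 floxed ones (log2 fold change -0.15, 95% interval -0.57 to 0.26, limma adjusted p = 0.593). Sirt6, a chromatin deacetylase with roles in DNA repair and glycolysis, read 10.66, 8.31 and 8.41 FPKM in controls and 6.1, 5.72 and 9.76 FPKM in knockouts. Knockout replicates 1 and 2 lie below every floxed library and knockout replicate 3 within the floxed range, and with it the log2 fold change was -0.33 (95% interval -0.83 to 0.17, limma adjusted p = 0.352). Sirt7, a nucleolar sirtuin linked to ribosomal RNA transcription, read 54.88, 40.02 and 36.91 FPKM in controls and 43.15, 48.64 and 37.12 FPKM in knockouts. Its groups overlap (limma adjusted p = 0.955), and its sign turned in 3 of 13 alternatives. Its neighbour Pcyt2, a phospholipid synthesis gene 423 bases away, read 41.23 to 48.13 FPKM in controls and 84.97, 82.26 and 39.78 FPKM in knockouts (limma adjusted p = 0.263).

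Sirt2, a cytosolic deacetylase of tubulin, was the most even of the members. It read 52.95, 54.56 and 53.69 FPKM in controls and 48.58, 48.77 and 49.19 FPKM in knockouts. Every knockout library lies below every floxed one, knockout replicate 3 included, and the mean was lower by 9.09%. The log2 fold change of -0.13 (95% interval -0.36 to 0.09, limma adjusted p = 0.401) is close to the median of all tested genes, -0.12. With median-ratio scaling, which moves the median of all genes to 0.02, it becomes 0.02, so its direction depends on the scaling.

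Since FPKM is per length, the sirtuins can be set beside each other. In floxed kidneys Sirt2 (53.7 ± 0.806 FPKM) and Sirt7 (43.9 ± 9.60) were the most abundant, with overlapping ranges, followed after a gap by Sirt3 (17.6 ± 1.20), Sirt4 (13.8 ± 3.14), Sirt1 (11.8 ± 2.13), Sirt6 (9.13 ± 1.33) and Sirt5 (6.94 ± 1.57). Each of these last 5 overlaps a neighbour in the order. In knockout kidneys the range of Sirt3 (35.0 ± 11.96 FPKM) reaches that of Sirt7 (43.0 ± 5.76 FPKM). Of the summed FPKM of the 7 sirtuins, a share that does not depend on how the libraries are scaled, Sirt3 took 10.6%, 11.1% and 12% in floxed and 25.0%, 22.4% and 14.2% in knockout replicates 1, 2 and 3. The 3 mitochondrial sirtuins together took 25.3%, 24.1% and 23.8% in floxed and 38.6%, 36.6% and 28.2% in knockout replicates 1, 2 and 3. For both shares all knockout libraries lie above all floxed ones, knockout replicate 3 by the least. The sum itself was 143.9 to 177.5 FPKM in floxed and 150 to 180.3 FPKM in knockout libraries.

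**Figure D4:**
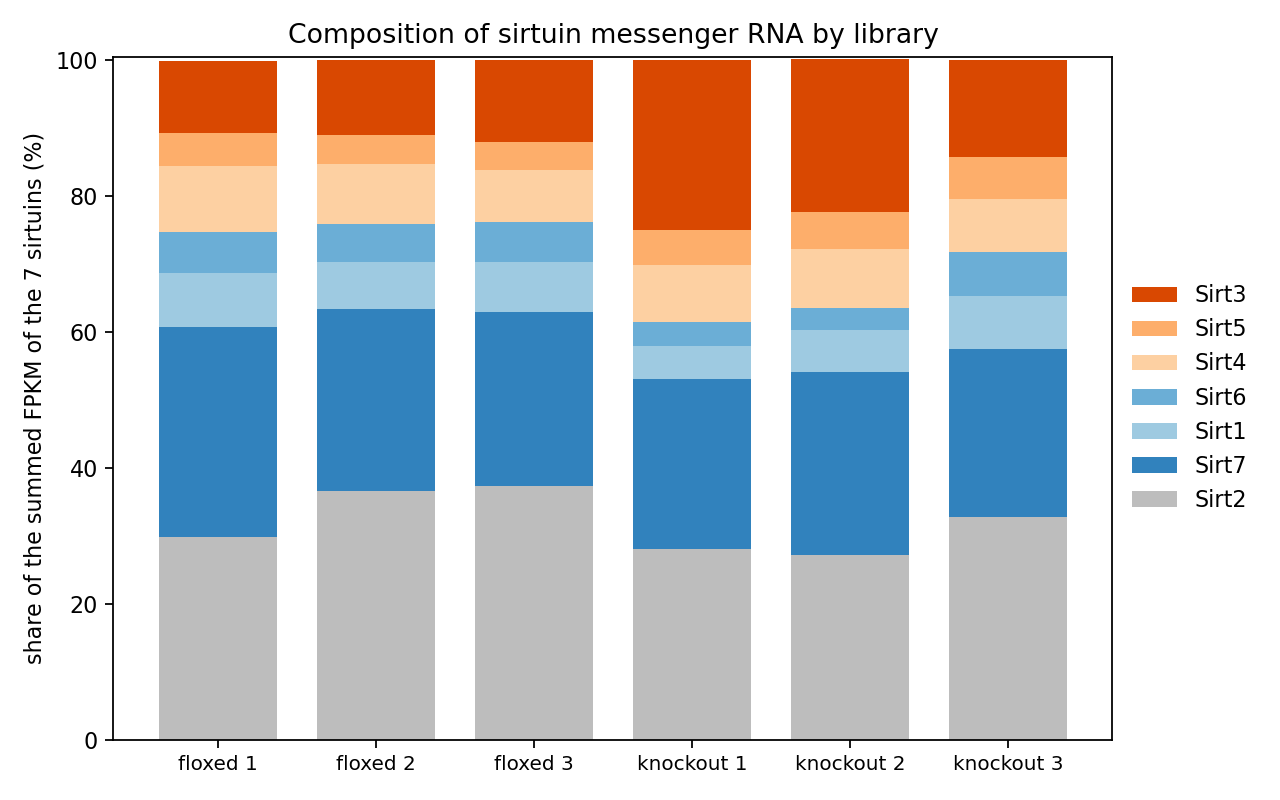
Share of each sirtuin in the summed FPKM of the 7 sirtuins, per library (stacked bars, in %). The Sirt3 share is 10.6 to 12% in the floxed libraries and 14.2 to 25.0% in the knockout libraries.

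The coactivators differed in level more than in pattern. Ppargc1a, the best known switch of mitochondrial biogenesis in kidney, read 8.6, 6.99 and 5.91 FPKM in controls and 11.23, 13.38 and 7.72 FPKM in knockouts. Knockout replicates 1 and 2 lie above all floxed libraries and knockout replicate 3 inside their range (log2 fold change 0.51, SE 0.219, 95% interval -0.01 to 1.03, limma adjusted p = 0.208). Ppargc1b read 2.27, 1.28 and 1.21 FPKM in controls and 2.52, 2.63 and 1.48 FPKM in knockouts. The pattern is like that of Ppargc1a, with floxed replicate 1 close to the knockout libraries (log2 fold change 0.31, 95% interval -0.24 to 0.87, limma adjusted p = 0.417). Tfam read 12.23, 11.57 and 11.05 FPKM in controls and 14.64, 14.78 and 13.47 FPKM in knockouts. Its groups did not overlap, with a ratio of means of 1.23 (log2 fold change 0.28, SE 0.110, 95% interval 0.02 to 0.54, limma adjusted p = 0.184).

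Whether members of a pair differ in their response was tested on their difference within each library, with an exact two-sided permutation test whose smallest p for 3 against 3 libraries is 0.1, adjusted over the 3 pairs. The gap between Sirt3 and Sirt1 on the log2(FPKM + 1) scale was 0.39, 0.63 and 0.65 in floxed and 2.23, 1.76 and 0.82 in knockout replicates 1, 2 and 3. All 3 knockout values were higher, by 1.05 on average (exact permutation p = 0.1, adjusted p = 0.3). For Ppargc1a and Ppargc1b the groups overlapped and the gap was 0.20 larger in knockout on average (exact permutation p = 0.2, adjusted p = 0.3). For Ppargc1a and Tfam the groups overlapped too, with a knockout value 0.23 higher on average (exact permutation p = 0.3, adjusted p = 0.3). None of the 3 differences passed, and this does not show that the genes of a pair respond alike.

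By pattern over the 6 libraries, the 5 tested genes most like Sirt3 were Calml4, Mpc1, Slc25a42, Ndufb8 and Gstk1, with Pearson correlations of 0.998 to 0.999. Mpc1 encodes a subunit of the mitochondrial pyruvate carrier and read 149.0, 142.46 and 141.91 FPKM in controls and 314.12, 296.21 and 171.41 FPKM in knockouts. Slc25a42, the mitochondrial coenzyme A carrier, read 6.76 to 9.08 FPKM in controls and 33.29, 27.65 and 9.94 FPKM in knockouts. The 5 most like Ppargc1a were Acsl3, Slc26a4, Scnn1g, Atp5g2 and Foxred1 (0.992 to 0.999), of which Slc26a4 and Scnn1g are transporters of the distal nephron. Slc26a4 read 8.45, 6.07 and 3.62 FPKM in controls and 16.89, 26.76 and 6.91 FPKM in knockouts, highest like Ppargc1a in knockout replicate 2. Among the members, the correlation with Ppargc1a was 0.930 for Ppargc1b, 0.915 for Sirt3, 0.912 for Tfam and -0.174 for Sirt1. The points share libraries and group differences, and with 13390 genes over 6 libraries values near 1 arise easily, so these are descriptions.

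The partners and regulators of these genes were followed in lists. With all 6 libraries no gene of these lists passed the limma threshold in either direction. Beside the list counts below, 24.7% of all tested genes had an unadjusted limma p under 0.05, 34.0% of them higher. Genes said to rise or fall without knockout replicate 3 had an adjusted limma p under 0.05 in that fit. Of all tested genes 9.02% passed it as higher and 15.4% as lower. Nuclear receptors that PGC-1 proteins bind had 15 tested genes, 5 of them higher and 1 lower at an unadjusted limma p under 0.05, with a list median of 0.30. Ppara, the fatty acid receptor that drives oxidation genes, read 3.72, 6.32 and 5.21 FPKM in controls and 14.8, 16.4 and 9.78 FPKM in knockouts (limma adjusted p = 0.0627). Every knockout library lies above every floxed one. The estrogen-related receptor gene Esrrb (1.38 to 1.93 against 2.7 to 5.86 FPKM) and the bile acid receptor Nr1h4 (34.21 to 43.3 against 61.5 to 86.41 FPKM) were apart in the same way, and Ppard lay the other way (6.69 to 6.8 against 4.02 to 5.5 FPKM). Without knockout replicate 3, 5 of the 15 rose and 1 fell.

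Of 38 tested regulators of PGC-1 activity and other biogenesis factors, 1 was higher and 9 lower at an unadjusted limma p under 0.05, with a list median of -0.17 beside -0.12 for all tested genes. Of all tested genes 24.7% lay under that p, 34.0% of them higher. Below 0 were 30 of the 38, and 20 of them with median-ratio scaling (list median -0.02). Prkaa2, a catalytic subunit of the energy sensor AMPK, read 8.35, 8.14 and 9.7 FPKM in controls and 18.35, 18.08 and 12.87 FPKM in knockouts (limma adjusted p = 0.0652). The AMPK subunit Prkab2 lay the other way, at 6.84 to 7.38 FPKM in floxed and 3.13 to 5.66 FPKM in knockout libraries (limma adjusted p = 0.118). So did Twist1, a mesenchymal transcription factor known to repress PGC-1alpha targets (1.95 to 6.18 against 0.5 to 0.66 FPKM), and the CREB coactivator Crtc3 (6.03 to 6.5 against 3.18 to 5.23 FPKM). Without knockout replicate 3, 2 of the 38 rose and 7 fell.

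The genes that copy and transcribe mitochondrial DNA beside Tfam had a list median of -0.03 over 25 tested members, with 2 higher and 1 lower at an unadjusted limma p under 0.05. With median-ratio scaling this median turned to 0.11. The mitochondrial topoisomerase Top1mt read 9.98, 8.88 and 8.15 FPKM in controls and 18.8, 12.84 and 12.16 FPKM in knockouts (limma adjusted p = 0.116). Polg, the mitochondrial DNA polymerase, was apart in the other direction at 12.35 to 14.77 against 9.95 to 11.1 FPKM (limma adjusted p = 0.153). Lonp1, a matrix protease that degrades Tfam, read 36.47 to 39.73 FPKM in controls and 62.49, 50.96 and 39.23 FPKM in knockouts, so the groups overlapped. Without knockout replicate 3, 3 of the 25 rose and 0 fell.

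NAD, the substrate of the sirtuins, is made by salvage through Nampt or from tryptophan. In that list of 19 tested genes, 7 were higher and 1 lower at an unadjusted limma p under 0.05, and the list median was 0.53. Nampt, the rate-limiting salvage enzyme, read 25.61, 22.59 and 23.62 FPKM in controls and 39.22, 44.47 and 42.1 FPKM in knockouts, a ratio of means of 1.75 (limma adjusted p = 0.0547). Here knockout replicate 3 stands with the other knockout libraries. The tryptophan pathway enzymes Kynu (2.73 to 4.8 against 5.62 to 10.72 FPKM) and Kmo (9.37 to 11 against 12.72 to 40.52 FPKM) and the mitochondrial NAD kinase Nadk2 (8.84 to 11.53 against 13.51 to 19.74 FPKM) did not overlap between groups either. Without knockout replicate 3, 9 of the 19 rose and 1 fell.

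Enzymes that compete for NAD or clear nicotinamide lay mostly below their floxed values: 12 of 13 tested genes were below 0 and 4 of them lower at an unadjusted limma p under 0.05, with a median of -0.21. With median-ratio scaling 10 of 13 were below 0 and the median was -0.06. Over all tested genes, without that scaling, 34.6% lay above 0 and the median was -0.12. Nnmt, which methylates nicotinamide, read 9.72, 9.7 and 13.61 FPKM in controls and 4.06, 2.57 and 5.16 FPKM in knockouts (limma adjusted p = 0.0578). The NAD glycohydrolase Cd38, a gene of immune cells, read 10.82 to 13.78 FPKM in controls and 4.7, 7.74 and 10.6 FPKM in knockouts (limma adjusted p = 0.174). Parp3 read 38.94 to 43.07 against 17.42 to 24.78 FPKM (limma adjusted p = 0.0547). Without knockout replicate 3, 4 of the 13 fell. Genes that act on the sirtuins themselves had 13 of 13 tested members below 0, with 3 lower at an unadjusted limma p under 0.05 and a median of -0.21. Among all tested genes 24.7% lay under that p in either direction, 34.0% of them higher. With median-ratio scaling 9 of 13 were below 0 and the median was -0.07. Hic1, a repressor of Sirt1 transcription, read 4.48, 3.69 and 5.72 FPKM in controls and 1.25, 1.87 and 2.73 FPKM in knockouts (limma adjusted p = 0.0876). Trp53 read 39.57 to 47.14 against 23.08 to 38.46 FPKM (limma adjusted p = 0.143). Without knockout replicate 3, 3 of the 13 fell.

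Mitochondrial enzymes known as deacylation targets of Sirt3, Sirt4 or Sirt5 had the highest list median of the pathway lists, 0.65, with 26 of 27 tested genes above 0 (27 with median-ratio scaling) and 23 higher at an unadjusted limma p under 0.05. Glud1, the glutamate dehydrogenase that Sirt4 restrains, read 87.93 to 90.7 FPKM in controls and 152.8, 139.87 and 164.43 FPKM in knockouts (limma adjusted p = 0.0547). Hadha and Hadhb, the subunits of the trifunctional protein of fatty acid oxidation, read 47.41 to 54.54 against 73.63 to 77.2 FPKM and 66.2 to 74.15 against 108.74 to 122.64 FPKM. In these 3 genes, named for their small p, knockout replicate 3 stands with the other knockout libraries. For the list as a whole its median was 0.20, against 0.998 and 0.74 in knockout replicates 1 and 2. Without knockout replicate 3, 25 of the 27 passed the limma threshold as higher and 0 as lower. Expression says nothing of the acylation of these proteins.

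**Figure D5:**
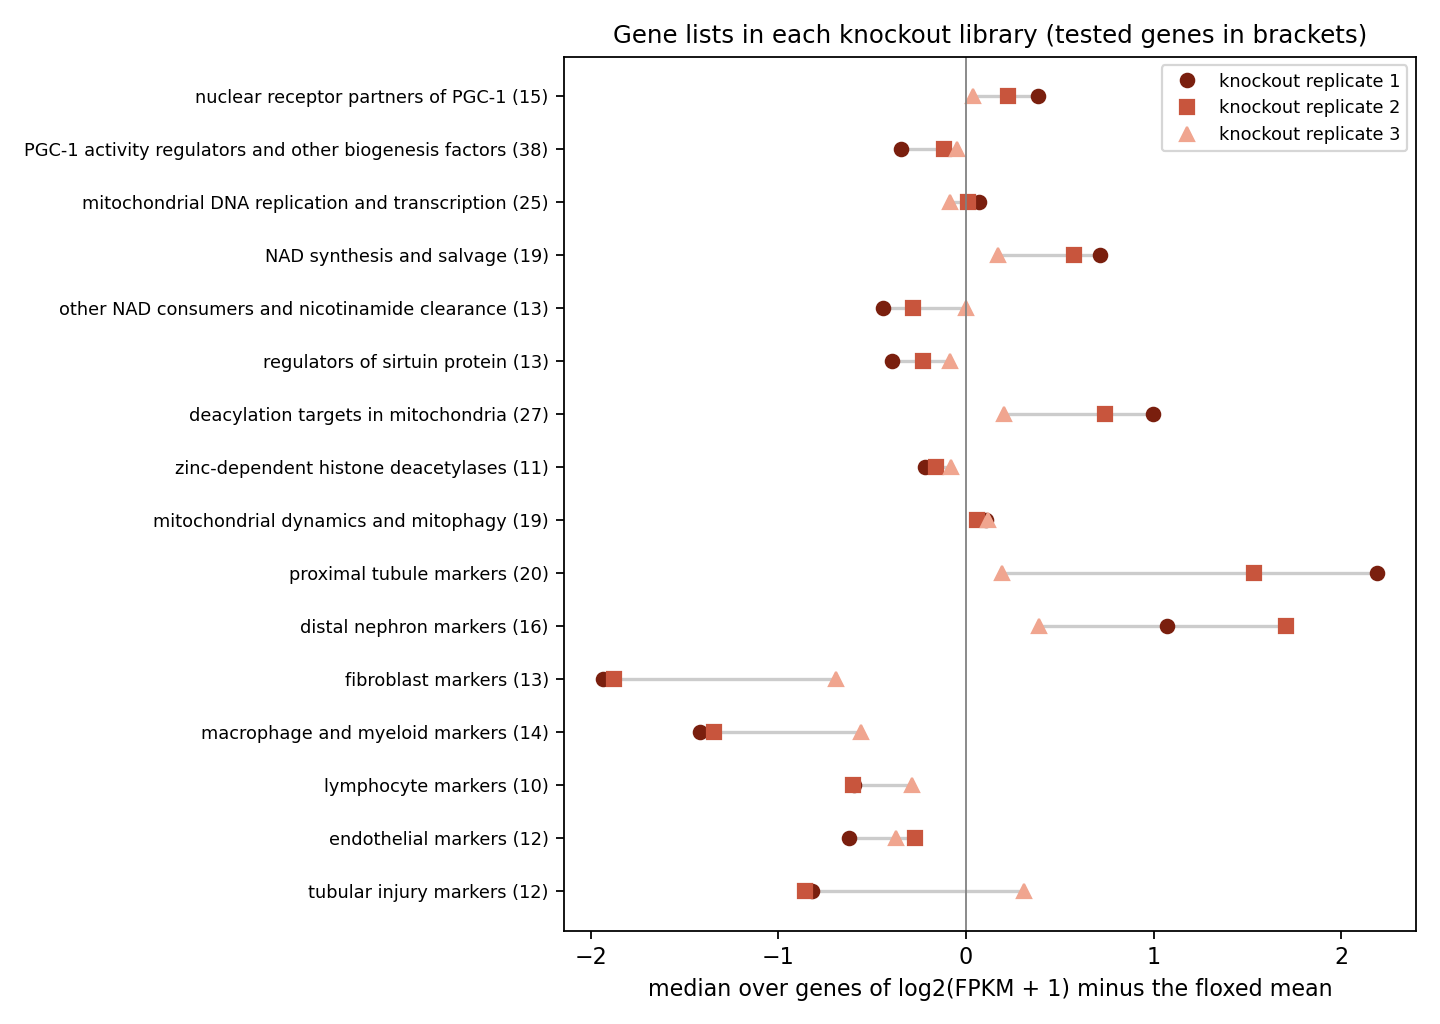
Median over the tested genes of each list (number in brackets) of log2(FPKM + 1) minus the floxed mean, in knockout replicates 1, 2 and 3. The deacylation target list lies at 0.998, 0.74 and 0.20, the proximal tubule list at 2.19, 1.53 and 0.19, and the fibroblast list at -1.93, -1.88 and -0.69.

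Markers of several kidney cell types differed between the groups as well. Beside the marker counts below, 34.6% of all tested genes lay above 0, and their median was -0.12. With all 6 libraries 0.0672% of all tested genes passed the limma threshold. Without knockout replicate 3, 9.02% passed it as higher and 15.4% as lower. Of 20 proximal tubule markers, 20 were above 0. With all 6 libraries 0 of them passed the limma threshold, and without knockout replicate 3 16 passed it as higher. Their summed level was 6332 to 15640 FPKM in floxed libraries and 48030, 15080 and 6479 FPKM in knockout replicates 1, 2 and 3. Only knockout replicate 1 lay above the floxed range of this sum. The transporter Slc34a1 read 250.59 to 398.78 FPKM in controls and 1562.88, 1463.95 and 324.67 FPKM in knockouts. Of 16 distal nephron markers 15 were above 0 (summed level 698.5 to 917.1 and 1000 to 2144 FPKM), with medians of 1.07, 1.70 and 0.39, the same order of the knockout libraries as for Ppargc1a. Of these 16 markers 0 passed the limma threshold with all 6 libraries, and 11 passed it as higher without knockout replicate 3. The 13 measured fibroblast markers were all below 0 and summed to 728.6 to 930.5 FPKM in floxed and 141.6 to 477.3 FPKM in knockout libraries. Of these 13 markers 1 passed the limma threshold as lower with all 6 libraries, and 12 did so without knockout replicate 3. Of 14 macrophage and myeloid markers 13 were below 0, with sums of 2087 to 2936 and 843.0 to 1704 FPKM. Of these 14 markers 1 passed the limma threshold as lower with all 6 libraries, and 13 did so without knockout replicate 3. All 12 endothelial markers were below 0 (median -0.39), with sums of 161.5 to 290.7 and 144.3 to 177.2 FPKM. Of 12 tubular injury markers 10 were below 0 (median -0.50), with sums of 12760 to 20530 and 11720 to 19910 FPKM. Their medians were -0.82, -0.86 and 0.31 in knockout replicates 1, 2 and 3, so knockout replicate 3 lay the other way. With all 6 libraries 0 markers of these 2 lists passed. Without knockout replicate 3, 1 endothelial and 5 injury markers passed as lower. None of the measured markers in any of these lists was at 0 in all libraries. The part of these cell types in the values of the 10 genes was not tested. Of 12 measured markers of brown fat and muscle, other tissues rich in PGC-1alpha, 10 stayed under 1 FPKM in every library, Ucp1 reading 0.03 to 0.15 FPKM. Dio2 reached 1.12 FPKM, and Fabp4, a fatty acid binding protein of adipocytes that endothelium and macrophages also express, read 83.7, 47.57 and 87.09 FPKM in controls and 118.28, 69.15 and 57.04 FPKM in knockouts.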

How the data were processed

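Kidney messenger RNA in 3 floxed and 3 knockout libraries was analysed as a table of FPKM per gene and library, which the authors deposited with 2 decimals (unit per the file headers). Per the submitters' processing notes, mm9 was the build. How reads were aligned, counted and filtered, and whether strand was used, is not given here, and reads of overlapping genes cannot be told apart. Groups and replicate numbers came from the sample titles. No 2 libraries held identical values. Since FPKM divides by the mapped total, abundant genes can move the rest.

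The 13390 genes that reached 1 FPKM in 3 or more of the 6 libraries were fitted on log2(FPKM + 1). R 4.3.3 and limma 3.58.1 were used with the trend option and a single group term. Tests were two-sided, and the Benjamini-Hochberg threshold of 0.05 applied over all tested genes. All 10 members passed the filter. The method was tested on simulated data. Single pairs were compared by exact permutation over libraries. Depth was estimated from the spacing of low FPKM in genes with 1 annotated transcript of 300 to 2000 nucleotides: 65.4% to 69.8% of those values were no more than 0.2 from whole fragment numbers, where 40.0% would by even spread. Lists were matched by symbol, by Entrez identifier or by a synonym that led to a single gene (303 of 308 genes found). The members and lists were chosen with earlier results of these data known. The text names all members, up to 4 genes per pathway list with the smallest p, and 5 genes most correlated with Sirt3 and with Ppargc1a. Some genes that this rule names are not reported here. Slc34a1 and Pcyt2 and the other marker and neighbour genes were chosen after their values were seen. Alternatives were a pseudocount of 0.1, other filters, 2 scalings, no trend, a replicate block and leaving out each library. Summaries and plots came from Python 3.11.15 (pandas 2.3.3, numpy 2.4.6, matplotlib 3.10.9).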

Additional observations from a re-analysis of the deposited data

How the results depend on the processing

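Under 7 alternatives (pseudocount of 0.1, every gene kept, mean FPKM from 5 up, median-ratio scaling, TPM scaling, limma without its trend, replicate block) the number of members past the threshold was 0, as with the main analysis, and leaving out 1 library gave 0 to 3 members, the 3 only without knockout replicate 3. The count over all genes, 9 in the main analysis, was 1 under the first 4 of these and without the trend, 10 with TPM scaling, and ranged from 0 to 3271 with 1 library left out (0 without floxed replicate 2 or 3, with 2298 and 2146 genes at an unadjusted p under 0.05; 3271 without knockout replicate 3); the cause was not tested. Same-numbered libraries did not deviate together (correlations of -0.126, -0.0699 and 0.034). This gives no sign that the numbers pair the samples but cannot exclude it, as the deviations are from means of only 3 libraries. The replicate block gave 2 genes. Median-ratio scaling moved the median of all genes from -0.12 to 0.02 and the share of higher genes at an unadjusted p under 0.05 from 34.0% to 54.3%; in it Sirt2 reversed to 0.0228 and Sirt7 to 0.14. Sirt4 reversed to -0.0264 with TPM scaling. With 1 library left out Sirt4 ranged from -0.11 to 0.19 and Sirt7 from -0.13 to 0.15. Sirt1, Sirt3, Sirt5, Sirt6, Ppargc1a, Ppargc1b and Tfam kept their direction in all alternatives run (Ppargc1b was removed by the mean filter of 5), Sirt3 between 0.71 and 1.21, Sirt5 between 0.31 and 0.56, Tfam between 0.23 and 0.43, Ppargc1a between 0.35 and 0.71, Ppargc1b between 0.21 and 0.50, Sirt6 between -0.54 and -0.19 and Sirt1 between -0.23 and -0.0080. The Sirt1 value was near 0 with median-ratio scaling (-0.0080), without floxed replicate 1 (-0.022) and without knockout replicate 1 (-0.024). Precision is limited by 3 libraries per group and, for Ppargc1b, by its low level.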

Other observations

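The zinc-dependent histone deacetylases share some substrates of the sirtuins but not their NAD chemistry. These genes lay slightly below their floxed values, 9 of 11 tested genes below 0 with a median of -0.13, close to the -0.12 of all tested genes. With median-ratio scaling 6 of 11 were below 0. None passed the limma threshold, and 2 were lower at an unadjusted p under 0.05, under which 24.7% of all tested genes lay in either direction. Hdac9 read 1.77, 1.73 and 1.24 FPKM in floxed kidneys and 0.6, 0.75 and 0.47 FPKM in knockout kidneys, and Hdac2 49.51 to 55.95 against 39.24 to 43.33 FPKM. Their groups did not overlap.

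Genes of mitochondrial fusion, fission and mitophagy had a median of 0.04 over 19 tested members (0.19 with median-ratio scaling and -0.0034 with TPM scaling). With all libraries 0 passed the limma threshold, and 4 were higher at an unadjusted p under 0.05. Of all tested genes 24.7% lay under that p in either direction. Without knockout replicate 3, 7 of the 19 passed the threshold as higher, as did 9.02% of all tested genes. The mitophagy receptor Bnip3 read 55.48, 52.39 and 53.79 FPKM in floxed kidneys and 110.77, 113.28 and 77.11 FPKM in knockout kidneys. The fusion genes Mfn1 (17.16 to 18.6 against 21.99 to 25.89 FPKM) and Mfn2 (16.44 to 19.3 against 20.87 to 29.27 FPKM) did not overlap between the groups either (limma adjusted p of 0.0636 for Bnip3, 0.109 for Mfn1 and 0.134 for Mfn2).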
